A study of Mus musculus with 19 samples.

Results

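Interferon-stimulated genes were followed in fibroblasts sorted from the mouse peritoneum, without and with ovarian carcinoma growing in the abdominal cavity. Members were taken from a list of 41 gene symbols by their presence, with a count, among the 12799 genes of the count table, which gave 38. Mx1, Gbp4 and Ifi44 were not analysed here. Of the 38, 22 had enough counts to be tested and 16 did not. All 19 mice were C57BL/6;Col1a1-YFP, in which a collagen promoter drives a yellow fluorescent protein, so the sorted cells are those with an active Col1a1 transgene and not every stromal cell. Normal mice, the controls (n = 5), received 200 µL of PBS. Tumour-bearing mice received tdTomato-marked ID8 cells, an ovarian carcinoma line of the mouse, in the same volume, and were sampled at day 7 (n = 5), day 28 (n = 5) or end stage (n = 4), whose day the labels do not state. The sources used here give no ages.

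Interferons are cytokines that bind receptors on almost any cell and act through JAK kinases and STAT proteins. Type I interferons lead to a complex of STAT proteins with Irf9, which binds a promoter element named ISRE, whereas interferon gamma acts mainly through an element named GAS. The induced genes code for antiviral effectors, guanosine triphosphatases that act against intracellular microbes, and regulators that sustain or damp the response. Fibroblasts respond to both types of interferon.

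RNA of sorted cells was sequenced by MARS-seq, a 3′ tag protocol for small amounts of RNA. Total counts ran from 66061 to 2449339 per library, with group medians of 172313 (day 28) to 378400 (end stage). Levels are CPM, the counts of a gene relative to a TMM-scaled library total. A gene with 0 counts could reach an upper limit of 3 counts. Relative to the unscaled total, that limit equals 45.4 CPM in the shallowest and 1.23 CPM in the deepest library. All 10 fibroblast markers were in the table, and their sum was 23067 to 54799 CPM. Because these are bulk samples, fewer cells of a type and less RNA per cell cannot be told apart. The 13 macrophage and monocyte markers in the table summed to 11.9 to 482 CPM and the single T and NK cell marker to 0 to 21.7 CPM. Mesothelial markers summed to 229 to 1403 CPM and erythroid markers to 59.6 to 1575 CPM. Those of pericytes and smooth muscle summed to 118 to 454 CPM, and endothelial markers to 89.9 to 324 CPM. The dendritic cell markers were not analysed here. The labels describe each library as a biological replicate and name no batch.

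One library stood apart for the members. Day 28 replicate 3, with 172313 counts, had the highest level of all 19 libraries for 12 of the 22 tested members. They were Isg15, Usp18, Oasl2, Ifit1, Bst2, Ifitm3, Irf2, Irf7, Irf9, Igtp, Parp14 and Ifi35. The same library was highest for 421 of all 5980 tested genes, or 7.04%, and for 18 of 58 further tested genes of the interferon pathway, or 31.03%. The summed level of the 38 members was 7205 CPM in that library and 3086 to 5091 CPM in the other 18. Without Ifitm2 and Ifitm3, which held about as many counts as all the others together, the sum was 3950 CPM against 1621 to 2709 CPM. This library was singled out after its values were seen, so the tally is a description.

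**Figure D1:**
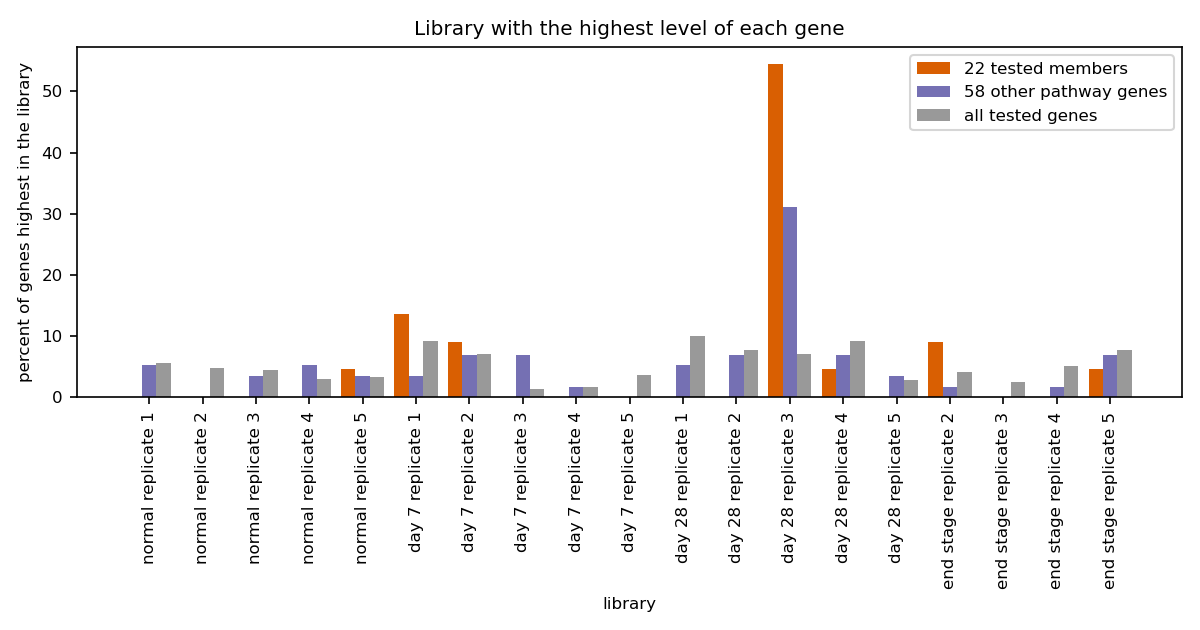
Percent of genes (vertical axis) for which each of the 19 libraries (horizontal axis) had the highest level, for the 22 tested members, the 58 tested pathway genes and all 5980 tested genes. Day 28 replicate 3 reaches 54.5% for the members and 7.04% for all genes.

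Markers of macrophages stood high as a sum in day 28 replicate 3. Its macrophage and monocyte sum was 313 CPM, against 11.9 to 167 CPM in the other day 28 libraries, 64.5 to 127 CPM in normal and 50.001 to 73.3 CPM in day 7 libraries. The complement gene C1qb gave 139 CPM of that sum, from 24 counts, the highest of all 19 libraries. C1qa at 63.8 CPM, C1qc at 17.4, Csf1r at 23.2, Cd14 at 34.8 and Lyz2 at 17.4 CPM also stood above their medians over 19 libraries, which were 13.0, 5.38, 10.8, 15.3 and 10.4 CPM, and Itgam, from 2 counts, was at its highest, 11.6 CPM. Cd68, at 5.80 CPM, stood below its median of 15.1 CPM. Ptprc, Adgre1, Mrc1, Tyrobp and Fcer1g had 0 counts there, which allows up to 17.4 CPM each, and each also had a median of 0 over the 19 libraries. End stage libraries had a macrophage sum of 121 to 482 CPM and a summed member level of 3528 to 4561 CPM. The endothelial sum in day 28 replicate 3, 221 CPM, was the lowest of the 5 day 28 libraries. The part of these cells in the member levels was not tested.

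Of the Isg15 system, Isg15 and Usp18 were highest in day 28 replicate 3 and Trim25 was not. Isg15, a ubiquitin-like protein that is secreted and also joined to other proteins, was at 47.7, 131, 521, 32.4 and 71.4 CPM in day 28 replicates 1 to 5. In normal libraries it was at 52.0, 46.9, 53.5, 63.9 and 102 CPM, at day 7 at 135, 42.1, 146, 102 and 84.3 CPM, and at the end stage at 61.9, 77.0, 126 and 174 CPM. One day 28 library lay far above every other, and the remaining 4 lay within the range of the other groups or below it. Usp18, the protease that removes Isg15 from its targets and restrains the type I receptor, was at 31.8, 23.7, 136, 70.3 and 63.7 CPM at day 28, on 2 to 25 counts a library. It was at 23.1, 20.7, 32.9, 18.6 and 22.4 CPM in normal, 5.89, 33.7, 44.1, 35.7 and 10.5 CPM in day 7, and 17.2, 53.9, 20.5 and 27.5 CPM in end stage libraries. For Usp18, 3 day 28 libraries exceeded all 14 others, and the 2 shallowest day 28 libraries lay among the normal ones. Trim25, a ubiquitin ligase of RNA sensing, had group means of 22.1 ± 10.6 (SD, n = 5) in normal, 21.2 ± 19.5 (n = 5) at day 7, 24.9 ± 22.8 (n = 5) at day 28 and 17.9 ± 14.0 CPM (n = 4) at the end stage. Its highest level, 54.0 CPM, was in day 28 replicate 4, beside 43.4 CPM in day 28 replicate 3.

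Among the transcription factors, Irf9, the DNA-binding part of the type I interferon complex, was at 111.2, 119, 186, 146 and 176 CPM at day 28. Its levels were 133, 52.4, 128, 42.6 and 92.9 CPM in normal, 70.7, 29.5, 102, 75.3 and 112 CPM in day 7, and 68.8, 108, 82.6 and 45.8 CPM in end stage libraries. All 5 day 28 libraries lay above all end stage libraries, and they overlapped the normal and day 7 ranges. Irf7, a factor that amplifies type I interferon production, was at 63.6, 94.9, 298, 64.9 and 206 CPM at day 28 and at 191, 19.3, 165, 34.6 and 41.6 CPM in normal libraries. It was at 129.6, 63.1, 87.6, 44.9 and 73.8 CPM at day 7 and at 58.5, 77.0, 72.1 and 64.1 CPM at the end stage. Irf7 varied within normal and day 28 libraries by more than between the group means. Irf1, an early factor downstream of interferon gamma and of inflammatory cytokines, was at 536, 236, 471, 531 and 239 CPM at day 7. It was at 168, 182, 202, 346 and 336 CPM in normal, 270.1, 119, 186, 184 and 359 CPM in day 28, and 196, 136, 121 and 275 CPM in end stage libraries. For Irf1, 3 day 7 libraries exceeded every library of the other groups and 2 lay among them. Stat2, the STAT partner of Irf9, had group means of 61.7 to 81.1 CPM, and Irf2, a factor related to Irf1 that opposes it at many promoters, of 55.8 to 72.8 CPM.

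**Figure D2:**
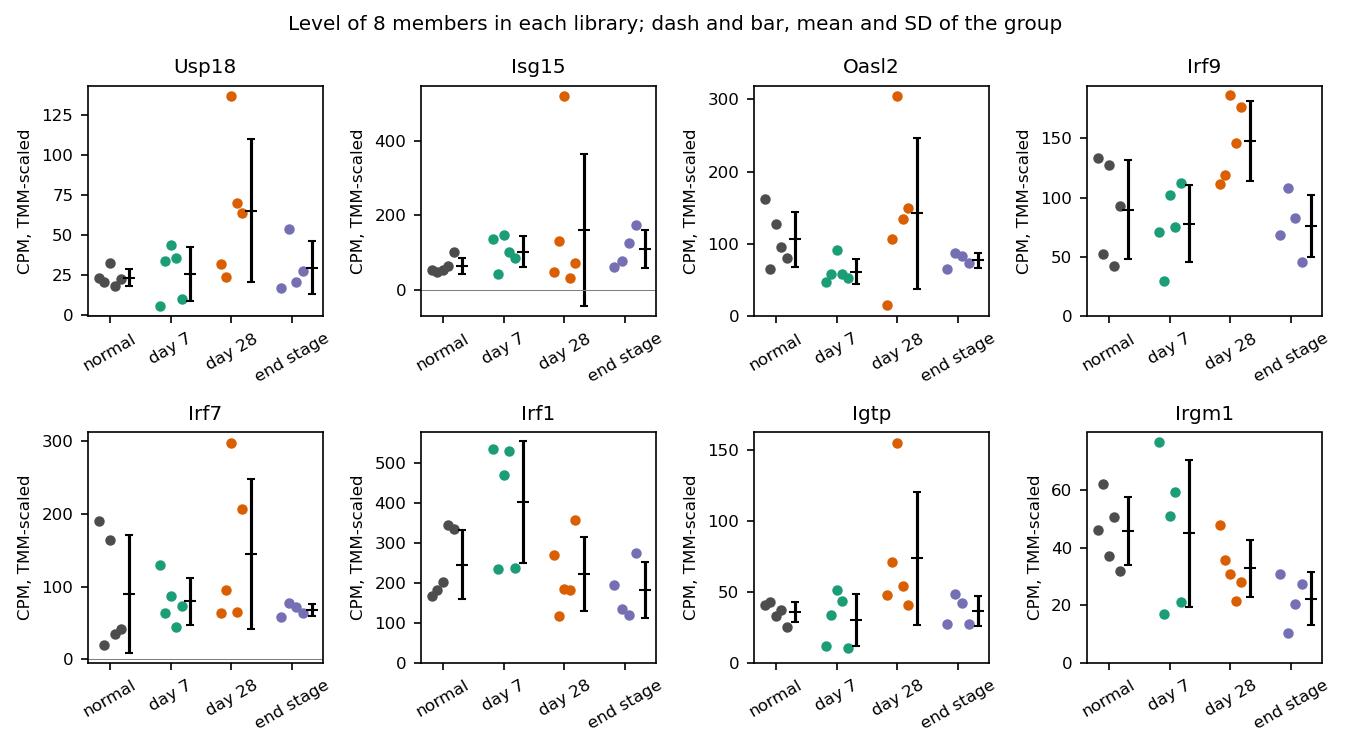
Level in CPM (vertical axes) of 8 members in each of 19 libraries (points) by group (horizontal axes), with the mean and SD of each group as dash and bar. The single high day 28 point of Isg15, at 521 CPM, and the 3 high day 28 points of Usp18 are seen, as are the 3 high day 7 points of Irf1.

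Of the antiviral effectors, Oasl2, an oligoadenylate synthetase-like protein, was at 15.9, 107, 304, 135 and 150.4 CPM at day 28 and at 47.1, 58.9, 91.4, 58.1 and 52.7 CPM at day 7. It was at 162, 66.2, 128, 95.9 and 80.1 CPM in normal and at 65.4, 87.3, 83.9 and 73.3 CPM in end stage libraries. Of the day 28 libraries, 4 exceeded all day 7 libraries, and the shallowest, with 1 count, was the lowest of all. Ifit1, which binds viral RNA, had means of 26.2 ± 2.6 (SD, n = 5) in normal, 17.7 ± 16.4 (n = 5) at day 7, 43.3 ± 39.7 (n = 5) at day 28 and 32.4 ± 13.5 CPM (n = 4) at the end stage. Bst2, or tetherin, which holds budding virus at the cell surface, had means of 370.3 ± 95.3 (SD, n = 5), 313 ± 132 (n = 5), 398 ± 197 (n = 5) and 323 ± 69.5 CPM (n = 4) in the same order. Ifitm3, a membrane protein that blocks viral entry, had means of 1209 ± 398 (SD, n = 5), 1286 ± 138 (n = 5), 1405 ± 575 (n = 5) and 1295 ± 292 CPM (n = 4). The groups of these 3 effectors overlapped throughout. Ifih1, a sensor of double-stranded RNA, had group means of 27.6 to 34.3 CPM.

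Of the immunity-related GTPases, which act on vacuoles that hold microbes, Igtp and Irgm1 were tested. Igtp was at 47.7, 71.2, 155, 54.0 and 40.8 CPM at day 28 and at 40.5, 42.8, 32.9, 37.3 and 25.6 CPM in normal libraries. It was at 11.8, 33.7, 51.1, 43.6 and 10.5 CPM at day 7 and at 27.5, 48.8, 41.95 and 27.5 CPM at the end stage. Of the day 28 libraries, 4 lay above all normal ones, with replicate 3 well above the rest, and the fifth lay among them. Irgm1 was at 46.2, 62.1, 37.1, 50.6 and 32.03 CPM in normal libraries and at 30.96, 10.3, 20.5 and 27.5 CPM at the end stage, without overlap. It was at 76.6, 16.8, 51.1, 59.4 and 21.1 CPM at day 7 and at 47.7, 35.6, 31.001, 21.6 and 28.0 CPM at day 28. The guanylate-binding proteins Gbp2 and Gbp3, the ADP-ribosyltransferase Parp14 and the ubiquitin ligase Rnf213 had means of 58.6 to 85.7, 36.8 to 54.9, 28.9 to 36.5 and 25.3 to 40.8 CPM, with overlap of all groups. The means of Rnf213 were 37.7 ± 19.2 (SD, n = 5) in normal and 40.8 ± 19.1 CPM (n = 5) at day 7. They were 25.3 ± 20.9 (n = 5) at day 28 and 40.7 ± 8.82 CPM (n = 4) at the end stage. How reads shared by near-identical relatives were counted is not stated, so the levels of Ifitm2 and Ifitm3, of Ifit3 and Ifit3b, and of the Gbp genes are uncertain.

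**Figure D3:**
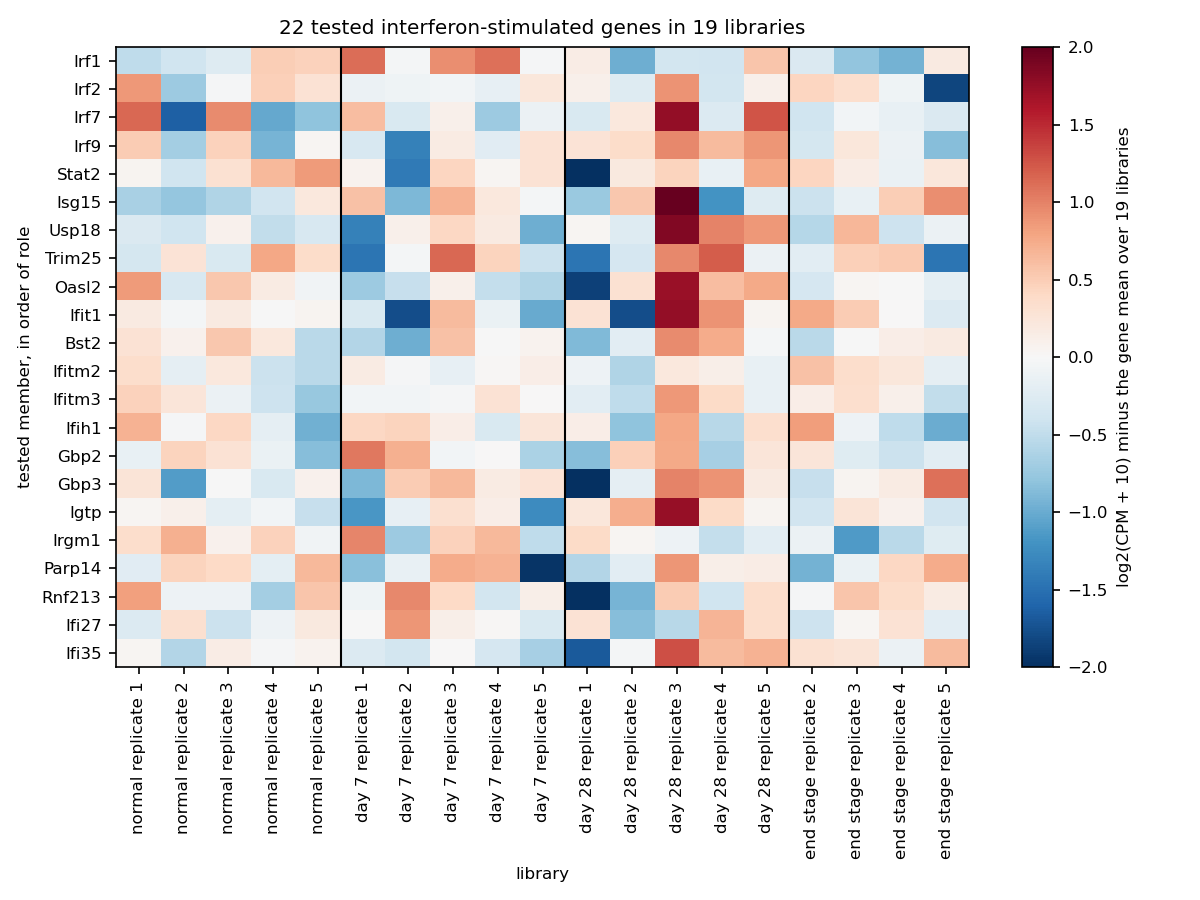
Level of the 22 tested members (rows, by role) in the 19 libraries (columns, by group), as log2(CPM + 10) minus the mean of the gene over all libraries. The column of day 28 replicate 3 holds most of the deepest red cells, and 12 of its 22 cells are the highest of their row.

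Promoter stretches are shown for 4 of the 12 members that were highest in day 28 replicate 3 (Isg15, Ifit1, Igtp and Bst2) and for Irgm1 and Irf1, which were not. The choice of the first 5 was made after their values were seen, because of the 4 members with the smallest p among the 4 groups, Irf1, Oasl2 and Irf9 were searched and did not hold the ISRE letters, and the promoter of Usp18 was not analysed here. Sequences are from RefSeq, build GRCm38.p6, each of 120 bases on the strand of its gene and before its start. Capitals mark the ISRE letters, GAAA and GAAA parted by any 2 bases, on either strand, so also their reverse complement, and in Irf1 the GAS letters, TTC and GAA parted by any 3 bases. The stretches of Bst2 and Igtp also hold the GAS letters, which begin at -136 and -45 from the start. They are not marked there.
Isg15, chr4:156200819-156200938, minus strand: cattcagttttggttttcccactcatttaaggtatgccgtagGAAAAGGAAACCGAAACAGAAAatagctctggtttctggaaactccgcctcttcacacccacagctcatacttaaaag
Ifit1, chr19:34640745-34640864, plus strand: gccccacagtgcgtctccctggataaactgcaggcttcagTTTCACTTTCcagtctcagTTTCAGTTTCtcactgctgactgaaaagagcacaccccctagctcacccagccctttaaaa
Igtp, chr11:58199436-58199555, plus strand: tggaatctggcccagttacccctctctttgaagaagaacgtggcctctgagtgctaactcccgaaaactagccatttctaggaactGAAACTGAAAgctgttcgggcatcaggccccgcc
Bst2, chr8:71537523-71537642, minus strand: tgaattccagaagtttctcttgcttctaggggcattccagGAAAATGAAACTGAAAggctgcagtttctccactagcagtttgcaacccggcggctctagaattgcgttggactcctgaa
Irgm1, chr11:48871421-48871540, minus strand: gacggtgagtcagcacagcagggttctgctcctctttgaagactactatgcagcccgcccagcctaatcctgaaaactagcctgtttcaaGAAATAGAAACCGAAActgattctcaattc
Irf1, chr11:53769884-53770003, plus strand: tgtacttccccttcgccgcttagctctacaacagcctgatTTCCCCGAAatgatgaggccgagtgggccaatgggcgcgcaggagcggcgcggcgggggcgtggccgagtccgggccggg

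The Isg15 stretch holds 3 overlapping matches, Ifit1 holds 2 apart, Bst2 and Irgm1 hold 2 overlapping each, and Igtp holds 1. In the 250 bases before the start, the ISRE letters were found in 16 of the 31 members of the count table with a RefSeq promoter, or 51.6%, against 936 of 27025 genes, or 3.46%. The GAS letters were found in 8 of the 31, or 25.8%, against 8.13% of all genes, and 6 members held both. Of the 12 members highest in day 28 replicate 3, 10 had a promoter entry, and 5 of these held the ISRE letters (Isg15, Ifit1, Igtp, Bst2 and Irf2) while 5 did not (Oasl2, Irf9, Irf7, Ifi35 and Ifitm3). Of the other tested members, 9 had an entry and 5 held them. Irgm1, whose mean was lowest at the end stage, carries the same letters as Isg15 and Bst2. A match is a description of the sequence.

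At day 7 no member was called against normal. edgeR's quasi-likelihood test with Benjamini-Hochberg adjustment over 5980 genes, at a threshold of 0.05, called 0 of 22 tested members, against 3 genes or 0.0502% of all, and DESeq2 and limma-voom also called 0. At an unadjusted p under 0.05 stood 1 member higher, Irf1, and 0 lower, against 1.72% and 1.76% of all genes. The smallest p values belonged to Irf1 at a log2 fold change of 0.70 ± 0.29 (SE), Oasl2 at -0.68 ± 0.35, Gbp3 at 0.62 ± 0.44, Isg15 at 0.70 ± 0.55, Stat2 at -0.33 ± 0.38 and Gbp2 at 0.31 ± 0.36, all with an adjusted p of 0.999 (edgeR). The 95% interval of Irf1 ran from 0.11 to 1.30. Of the tested members, 11 were positive and 11 negative, and their median log2 fold change was 0.029, beside -0.016 over all genes, 47.89% of which were positive.

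At day 28 no member was called against normal either, and none of the 5980 genes, 0%, was called by edgeR, with 0 members called by DESeq2 and by limma-voom. Usp18 had the smallest p, with a log2 fold change of 1.59 ± 0.48 with a 95% interval of 0.62 to 2.57 (edgeR adjusted p = 0.572). Isg15 was at 1.36 ± 0.57, Igtp at 1.02 ± 0.43, Irf7 at 0.91 ± 0.53, Irf9 at 0.82 ± 0.34 and Ifi35, a leucine zipper protein of the response, at 0.72 ± 0.34, with adjusted p values of 0.663 to 0.763 (edgeR). At an unadjusted p under 0.05 stood 5 members higher and 0 lower, against 2.89% and 4.16% of all genes. In either direction it was 2 members without normal replicate 2, against 4.98% of all genes. It was 3 members without normal replicate 4 or day 28 replicate 5, against 5.13% and 8.78%. Of the 22, 16 were positive, and the median was 0.20, beside -0.019 over all genes, 48.11% of which were positive. Other members followed were Oasl2 at 0.56 ± 0.36, Ifitm3 at 0.23 ± 0.25, Bst2 at 0.15 ± 0.30, Irf1 at -0.11 ± 0.31, Rnf213 at -0.22 ± 0.49 and Irgm1 at -0.61 ± 0.45. The signs of Ifitm3 and Bst2 turned without day 28 replicate 3, to -0.027 and -0.088, and that of Irf1 turned to 0.038 without normal replicate 4.

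Of these values, the median depended most on day 28 replicate 3. It was 0.32, 0.32, 0.34 and 0.27 without day 28 replicates 1, 2, 4 and 5. Replicate 3 was singled out for its high member levels, so a fall without it was built into that choice. Without replicate 3, the median of the 21 members then tested was -0.027, beside -0.028 over all genes, and 10 were positive. Usp18 was the 1 member at an unadjusted p under 0.05, against 5.57% of all genes. Usp18 was then at 1.18 ± 0.51, Irf9 at 0.74 ± 0.37, Ifi35 at 0.44 ± 0.36, Igtp at 0.51 ± 0.46 and Isg15 at 0.088 ± 0.43. Without the 3 libraries under 150000 counts, which are day 28 replicates 1 and 2 and end stage replicate 5, day 28 consists of replicates 3, 4 and 5. The median was then 0.47, beside -0.013 over all genes, and 21 of 22 members were positive. Of the members, 7 stood at an unadjusted p under 0.05, against 7.40% of all genes, still with 0 called. With every library thinned to at most 200000 counts, 17 members were tested, the median was 0.34 and 13 were positive. Of these 17, 0 stood at an unadjusted p under 0.05, against 3.70% of all genes. The endothelial marker sum was 221 to 324 CPM at day 28 and 96.8 to 249 CPM in normal libraries, and its part in these values was not tested.

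**Figure D4:**
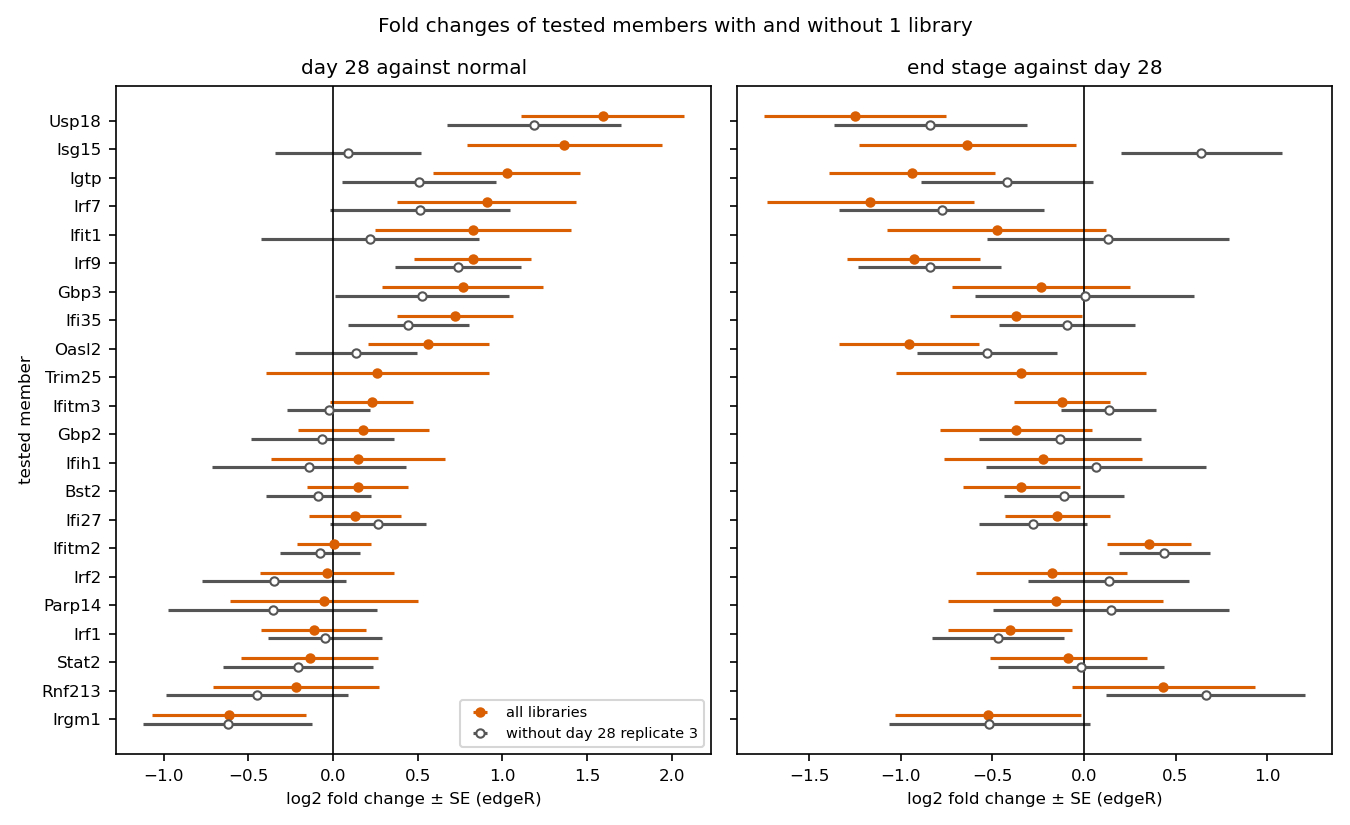
log2 fold change ± SE (horizontal axes) of the tested members (vertical axis) for day 28 against normal and end stage against day 28, with all libraries and without day 28 replicate 3. Isg15 moves from 1.36 to 0.088 in the first and from -0.64 to 0.64 in the second, while Irf9 moves from 0.82 to 0.74 and from -0.93 to -0.84. Trim25 was not tested without that library.

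Against day 7, the smallest p values at day 28 belonged to 5 members with positive values and to Irf1, which was negative. This comparison and that with normal share the day 28 libraries, so they are not independent. edgeR called 0 of 22 members and 0 of 5980 genes, 0%, and DESeq2 and limma-voom called 0 members. Oasl2 was at 1.24 ± 0.36 (95% interval 0.51 to 1.98, edgeR adjusted p = 0.348). Usp18 was at 1.25 ± 0.45, Igtp at 1.12 ± 0.42, Ifi35 at 0.97 ± 0.34 and Irf9 at 0.93 ± 0.34, while Irf1 was at -0.82 ± 0.31, with adjusted p values of 0.429 to 0.460 (edgeR). At an unadjusted p under 0.05 stood 5 members higher and 1 lower, against 4.10% and 4.90% of all genes. The median was 0.17, beside -0.014 over all genes, with 15 of 22 positive, against 48.68% of all genes.

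Without day 28 replicate 3 that median was -0.051, and 3 members were left at an unadjusted p under 0.05, against 7.30% of all genes. They were Oasl2, at 0.82 ± 0.36, Irf9, at 0.84 ± 0.37, and Irf1, at -0.75 ± 0.33. Isg15 stood at 0.66 ± 0.55 with all libraries and at -0.61 without that one. Irf7 was at 1.00 ± 0.52, Bst2 at 0.36 ± 0.30, Ifitm3 at 0.13 ± 0.25 (-0.12 without that library), Rnf213 at -0.38 ± 0.48 and Irgm1 at -0.58 ± 0.45. The endothelial marker sum was 221 to 324 CPM at day 28 and 138 to 195 CPM at day 7, without overlap, and its part in these values was not tested.

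At the end stage no member was called against normal. edgeR called 0 of 22 members, against 24 genes or 0.401% of all, and DESeq2 and limma-voom called 0. Irgm1 had the smallest p, at -1.14 ± 0.45 (95% interval -2.05 to -0.23, edgeR adjusted p = 0.460), and was the 1 member at an unadjusted p under 0.05 on the lower side, against 3.34% of all genes, with 0 on the higher side, against 3.70%. Its 4 end stage libraries lay below all 5 normal ones, as they did for 1.51% of all genes. Next came Irf1 at -0.52 ± 0.33, Ifitm2, a relative of Ifitm3, at 0.36 ± 0.23, Isg15 at 0.73 ± 0.59, Gbp3 at 0.53 ± 0.48 and Oasl2 at -0.39 ± 0.37, with adjusted p values of 0.836 to 0.935 (edgeR). The median was -0.078, beside -0.020 over all genes, with 9 of 22 positive, against 48.01% of all genes. Irgm1 rests on 3 to 47 counts a library at the end stage.

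Irf1 came nearest to the threshold in the end stage against day 7. Its log2 fold change was -1.22 ± 0.33, with a 95% interval of -1.88 to -0.56 (edgeR adjusted p = 0.0978), and 3 of 4 end stage libraries lay below all day 7 libraries. edgeR called 0 of 22 members, against 28 genes or 0.468% of all, and DESeq2 called 0. limma-voom called Irf1, at -1.34 with an adjusted p of 0.0128. It was also called by edgeR without day 7 replicate 5, at -1.36 with an adjusted p of 0.0454. The authors' deposited table gives Irf1 an adjusted p of 0.0938 in this comparison, its lowest for any member in any comparison. The summed level of 11 genes of the response to tissue dissociation, such as Fos and Jun, was 25317 to 35468 CPM at day 7 and 19039 to 28216 CPM at the end stage, and its part in the values of Irf1 was not tested. At an unadjusted p under 0.05 stood Irf1 and Irgm1, both lower, and 0 members higher, against 3.71% and 3.78% of all genes.

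Irgm1 was at -1.10 ± 0.44 in that comparison, Ifi35 at 0.60 ± 0.35, Gbp2 at -0.50 ± 0.39, Ifitm2 at 0.25 ± 0.23 and Ifit1 at 0.62 ± 0.56, with adjusted p values of 0.495 to 0.955 (edgeR). The median was 0.0085, beside -0.0025 over all genes, with 12 of 22 positive, against 49.82% of all genes. The macrophage and monocyte sum was 50.001 to 73.3 CPM at day 7 and 121 to 482 CPM at the end stage, without overlap, and its part in these values was not tested.

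From day 28 to the end stage, 20 of 22 members were negative and 2 positive, against 49.55% of all genes positive, with a median of -0.36, beside -0.0063 over all genes. No member was called by edgeR, against 24 genes or 0.401% of all, nor by DESeq2 or limma-voom. Irf9 was at -0.93 ± 0.36 (95% interval -1.67 to -0.19), Usp18 at -1.25 ± 0.50, Oasl2 at -0.95 ± 0.38, Igtp at -0.94 ± 0.45, Irf7 at -1.17 ± 0.56 and Ifitm2 at 0.36 ± 0.23, with adjusted p values of 0.356 to 0.664 (edgeR). At an unadjusted p under 0.05 stood 4 members lower and 0 higher, against 3.58% and 6.14% of all genes. In either direction it was 2 members without end stage replicate 2 or 4, against 8.47% and 6.45% of all genes. Irf9 was the 1 member whose end stage libraries all lay below the day 28 ones, as for 0.836% of all genes.

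Without day 28 replicate 3 the median was -0.091 and 9 of 21 members were positive. Irf9, at -0.84 ± 0.39, was the 1 member at an unadjusted p under 0.05, against 8.51% of all genes. Isg15 stood at -0.64 ± 0.59 with all libraries and at 0.64 without that one. Bst2 was at -0.34 ± 0.32, Ifitm3 at -0.12 ± 0.26 (0.13 without that library), Irf1 at -0.40 ± 0.34, Irgm1 at -0.52 ± 0.51 and Rnf213 at 0.43 ± 0.50. The endothelial marker sum was 221 to 324 CPM at day 28 and 89.9 to 203 CPM at the end stage, without overlap, and its part in these values was not tested.

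In a joint test of any difference among the 4 groups, edgeR called 0 members, against 41 genes or 0.686% of all, and limma-voom called 1, Irf1. Irf1 had the smallest p (edgeR adjusted p = 0.200), followed by Usp18 (0.314), Oasl2 (0.328) and Irf9 (0.479). At an unadjusted p under 0.05 stood 6 members, against 8.96% of all genes. Without day 28 replicate 3 it was 1 member, against 7.28% of all genes.

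The 16 members below the filter held 26 to 178 counts each over 19 libraries, so no test was made. They were Oasl1, Oas1a, Oas2, Ifit2, Ifit3, Ifit3b, Mx2, Rsad2, Samd9l, Gbp5, Gbp6, Gbp7, Iigp1, Ifi47, Dtx3l and Xaf1. Their summed level was 136 ± 26.1 (SD, n = 5) in normal libraries, 146 ± 54.2 (n = 5) at day 7, 202 ± 78.6 (n = 5) at day 28 and 102 ± 40.6 CPM (n = 4) at the end stage. Day 28 replicate 3 again had the highest sum, 329 CPM, and the other 18 libraries lay between 45.8 and 211 CPM. Iigp1, an immunity-related GTPase, had the most counts, with means of 13.5 ± 12.2 (SD, n = 5) in normal, 17.9 ± 14.2 (n = 5) at day 7, 27.7 ± 31.1 (n = 5) at day 28 and 15.7 ± 7.72 CPM (n = 4) at the end stage. Day 28 replicate 4, at 81.1 CPM, was the highest. Ifit3 had means of 11.8 ± 3.75, 17.3 ± 14.2, 25.6 ± 17.4 and 10.4 ± 9.55 CPM (SD), and Gbp7 of 15.4 ± 4.54, 14.2 ± 10.4, 11.8 ± 11.2 and 10.3 ± 4.75 CPM (SD) in the same order. Rsad2, the antiviral enzyme viperin, had 29 counts in all, from 11 libraries.

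The wider pathway gave no call. Of 142 further genes of the pathway, 98 were in the table and 58 were tested, and edgeR called 0 of them in any of the 6 comparisons. The 14 interferon genes on the list were not analysed here. The receptor chains Ifnar1, Ifnar2 and Ifngr1 each had counts in 19 libraries. Ifngr2, the other chain of the interferon gamma receptor, had 60 counts in all, from 9 libraries. Cmpk2, an interferon-induced nucleotide kinase, was at 31.8, 71.2, 99.2, 48.6 and 45.9 CPM at day 28, and at 34.7, 26.2, 12.4, 23.98 and 9.61 CPM in normal libraries. Its log2 fold change at day 28 was 1.48 ± 0.49 against normal (edgeR adjusted p = 0.572), 4 of the 5 day 28 libraries exceeding all normal ones. Rtp4, an interferon-induced receptor transporter protein, was at 1.40 ± 0.51 (edgeR adjusted p = 0.579), with its highest level, 136 CPM, in day 28 replicate 3. Cmpk2 was at 1.44 ± 0.48 at day 28 against day 7 and at -1.34 ± 0.52 from day 28 to the end stage (edgeR adjusted p = 0.423 and 0.356).

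The other pathway genes with the smallest p in each comparison were of mixed roles. At day 7 against normal they were the exonuclease Isg20 at -0.80 ± 0.39 and the chemokine Cxcl10, which draws T cells, at 1.00 ± 0.50 (both edgeR adjusted p = 0.999). Mavs, the mitochondrial adaptor of RNA sensing, was at 1.36 ± 0.47 at day 28 against day 7 (edgeR adjusted p = 0.423), and Znfx1, an RNA-binding helicase, at -1.22 ± 0.41 from day 28 to the end stage (edgeR adjusted p = 0.239). At the end stage against normal they were Ifi207, of the nucleic acid-binding Ifi200 family, at -0.90 ± 0.39 and the factor Irf4 at -0.76 ± 0.45 (edgeR adjusted p = 0.551 and 0.798). Stat3, a STAT protein of interleukin 6 signalling, was at 203, 192, 298 and 321 CPM at the end stage and at 100.1, 130.5, 158, 158 and 87.8 CPM at day 7, without overlap, as for 1.76% of all genes. Its log2 fold change was 0.95 ± 0.28 and that of Isg20 0.90 ± 0.41 (edgeR adjusted p = 0.151 and 0.600).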

How the data were processed

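PolyA RNA of sorted peritoneal fibroblasts of 19 mice was sequenced by MARS-seq, per the labels' protocols, which state that RNA of high integrity alone was used. Raw whole-number counts for every gene and library were deposited by the authors, per the file headers. Their deposited normalized signal, in which each library's counts are divided by its size factor, served here as a check of the counts. For 6 pairwise comparisons the authors deposited a log2 fold change and p-values, before and after adjustment. Other deposited settings are thresholds of the authors. They include 0.1 for the adjusted p, 0.58 for the size of the log2 fold change and 30 for the highest count. That for the highest count was not applied here. The submitters' processing notes name DESeq2 and the build GRCm39. Aligner, counting tool, annotation and use of molecular identifiers: not given in the sources used here.

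The members and lists were chosen with earlier results of these data known. The filter (filterByExpr, minimum count 10) left 5980 of 12799 genes, and 22 genes had no count at all. It can keep a member through the 1 group where it is high, so counts over tested members are descriptions. One edgeR 4.0.16 model of the 4 groups (TMM, robust quasi-likelihood F test, R 4.3.3) was fitted to all 19 libraries. Adjustment was by Benjamini-Hochberg over all tested genes, and 0.05 was the threshold. The biological coefficient of variation was 0.334, with TMM factors of 0.949 to 1.099. Marker sums use library totals. P-values weigh the difference between groups against the variation among libraries, which includes counting error. Floors cover counting error alone.

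In each comparison the 6 tested members with the smallest p are given, since fewer passed the threshold. For 13 members followed throughout, levels are given in every group and, where tested, fold changes in the 3 comparisons with day 28. Of the pathway list the 2 genes with the smallest p are given. As alternatives, DESeq2 1.42.0 and limma-voom (limma 3.58.1, quality weights) replaced edgeR, scaling was by DESeq2 size factors or by library size, and the filter was dropped or set to 20. Further fits took each pair of groups alone, added a replicate block, thinned libraries to 200000 counts or left out the 3 under 150000 counts. Others left out each library in turn. The main fit was also read at the authors' thresholds for the adjusted p and the fold change. Promoter letters were searched on both strands of RefSeq windows of build GRCm38.p6. Python 3.11.15 with pandas 2.3.3, numpy 2.4.6 and matplotlib 3.10.9 was used for tables and plots.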

Additional observations from a re-analysis of the deposited data

Results flagged for a closer look

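In 88 sets, each the libraries of 1 group for 1 tested member, 8 had a highest or lowest library far from the others by Dixon's criterion. Chance meets it in about 1 of 20 sets of independent, normally distributed values. These sets share libraries of unequal depth, so that rate need not hold here. Day 28 replicate 3 was the high library for Isg15 (521 CPM), Igtp (155 CPM) and Irf2 (118 CPM). At day 7 the high libraries were replicate 2 for Ifi27, a small membrane protein induced by interferon (652 CPM), replicate 3 for Oasl2 (91.4 CPM), replicate 4 for Ifitm3 (1529 CPM) and replicate 5 for Irf2 (70.2 CPM). Normal replicate 2 was the low library for Ifi35 (45.5 CPM).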

How the results depend on the processing

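Depth is a limit, since day 28 replicates 1 and 2 and end stage replicate 5 hold few counts of most members. The count of members called, 0 in every comparison, rose to 1 (Irf1) in the end stage against day 7 with limma-voom, with the authors' thresholds and without day 7 replicate 5 (0 to 1 over the libraries left out), and to 1 (Irf1) in the joint test with limma-voom; it was 0 in all other alternatives. Of 1927 fold changes of named genes under alternatives, 1908 kept their sign and their side of the threshold and 3, all of Irf1, passed it. With the authors' thresholds, Irf1 passed by the same edgeR fit read at 0.1. No named gene was called with all libraries in edgeR, so keeping the side of the threshold says little about stability. The 1927 include the authors' thresholds, which reread the same fold changes, so no sign could change there. They also include fits that left out a library of a group outside the comparison. Sizes could still move, as for Isg15 at day 28 against normal, from 1.36 to 0.088 without day 28 replicate 3. The 16 that changed sign were all of values not called, and the cause was not tested. At day 28 against normal, Irf1 came to 0.0048 and Rnf213 to 0.11 without the libraries under 150000 counts, and Rnf213 to 0.034 with limma-voom. Ifitm3 came to -0.027 at day 28 against day 7 with limma-voom, and Gbp2 to 0.020 in the end stage against day 7 with thinning. With each library left out, the ranges at day 28 against normal were -0.40 to 0.038 for Irf1, -0.027 to 0.39 for Ifitm3 and -0.088 to 0.32 for Bst2. At day 28 against day 7 they were -0.61 to 0.94 for Isg15 and -0.12 to 0.26 for Ifitm3, and from day 28 to the end stage -0.92 to 0.64 for Isg15 and -0.24 to 0.13 for Ifitm3. The numbers of genes called of all tested ranged over the alternatives from 0 to 10 at day 7, 0 to 1 at day 28 and 3 to 50 at the end stage against normal, 0 to 32 at day 28 and 1 to 124 at the end stage against day 7, and 5 to 57 from day 28 to the end stage. Deviations of same-numbered libraries correlated between -0.33 and 0.43 over 27 pairs, with a median of 0.055. Those of different-numbered libraries correlated between -0.40 and 0.46 over 108 pairs, with a median of -0.040. Of 19 libraries, 5 correlated best with their own number. The ranges overlap, so this check cannot settle whether replicate numbers pair libraries. With the replicate block 0 members were called in each comparison.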
